A study of Danio rerio with 16 samples.

Results

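The cytosolic ribosomal protein genes are the genes for the proteins of the large and small subunits of the cytoplasmic ribosome. They were taken from the platform annotation, as the probe sets whose only gene symbol fits a pattern. The pattern is rpl or rps followed by a number, by p and a number, or by a. The S6 kinases (rps6k), rps19bp and rps27l match it and were left out. Of these, rps27l is named as like a ribosomal protein, as are rpl22l1, rpl7l1 and rps26l, which were kept. The rule found 76 probe sets of 15502, for 72 genes of 8793 distinct symbols, 45 of the large and 27 of the small subunit. Where a gene had several probe sets, the brightest over the 16 arrays stands for it. The rule used no measured value.

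Total RNA of zebrafish was read on a 1-colour Affymetrix array. At the stage labelled 36 h there were 6 arrays of embryos labelled foggy, with title numbers 1 to 6, and 4 arrays of wild type, with title numbers 1, 4, 5 and 6, all described as embryonic brain. At the 12-somite stage there were 3 arrays of embryos injected with an RNA named Foggy(DelCter) and 3 of embryos injected with a control RNA. The labels give no strain, no allele, no sequence of either RNA and no number of animals, and they do not say whether replicates were separate clutches or extracts, so the p-values speak of the spread between arrays, part or all of which could be technical. Under source, all 16 samples carry brain and adrenal medulla alike, also the injected embryos.

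The ribosome is assembled from ribosomal RNA and about one copy of each ribosomal protein, so the genes of these proteins are commonly expressed together and at high levels in growing embryonic tissue. Their mRNAs share a short pyrimidine stretch at the start, through which mTOR signalling sets how much they are translated, and loss of single members is known in zebrafish and humans to activate p53. The foggy gene, supt5h, encodes the large subunit of DSIF, which binds RNA polymerase II and acts on its pausing and elongation.

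The targeted transcript separated the labels only in part. The supt5h signal averaged 41.9 ± 4.51 units in arrays labelled foggy with numbers 4 to 6, against 198 ± 32.5 units in wild type with numbers 4 to 6 (SD, n = 3 each). In numbers 1 to 3 it was 252 ± 6.91 units in the 3 arrays labelled foggy, against 210 units in the single wild-type array, so that those 3 arrays do not show the loss. The injected embryos had 428 ± 43.6 units with Foggy(DelCter) RNA and 409 ± 23.9 units with control RNA. The arrays of numbers 1 to 3 also stood apart in tissue markers: neuronal markers (18 genes) summed to between 17915 and 18189 units in the foggy arrays of numbers 1 to 3, against 1783 to 2147 units in those of numbers 4 to 6, and yolk layer and liver markers (21 genes) to between 1448 and 1486 units, against 72868 to 78123 units. Of 29 trunk and tail Hox genes, 25 or 26 were at or below the brightest unused tag control in the foggy arrays of numbers 1 to 3. In the foggy arrays of numbers 4 to 6 there were 0 to 4 such genes. The wild-type arrays divided alike, with neuronal markers at 19129 units in array 1, against 3442 to 4268 units in arrays 4 to 6. Comparisons at 36 h were therefore made within numbers 4 to 6, over all 10 arrays, and between the sets.

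Ribosomal protein genes filled the top of every array. Of the 72 genes, 70 or 71 lay among the brightest 2% of probe sets and 65 to 69 among the brightest 150, and together they made up between 12.7 and 16.4% of the summed signal. Brightness of a probe set depends on its probes, so the order of the genes is not an order of abundance. The 6 brightest in wild type of numbers 4 to 6 were rps4x, rpsa, rps2, rplp0, rpl7a and rpl8, with rps4x at 13003 ± 1393 units (SD, n = 3). The 6 dimmest were rpl27a, rplp2, rpl29, rpl22l1, rps27.2 and rpl7l1. The dimmest of these, rpl7l1, ranged from 553 to 2343 units over the 16 arrays and lay at the 92.2nd percentile of its array or above.

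**Figure D1:**
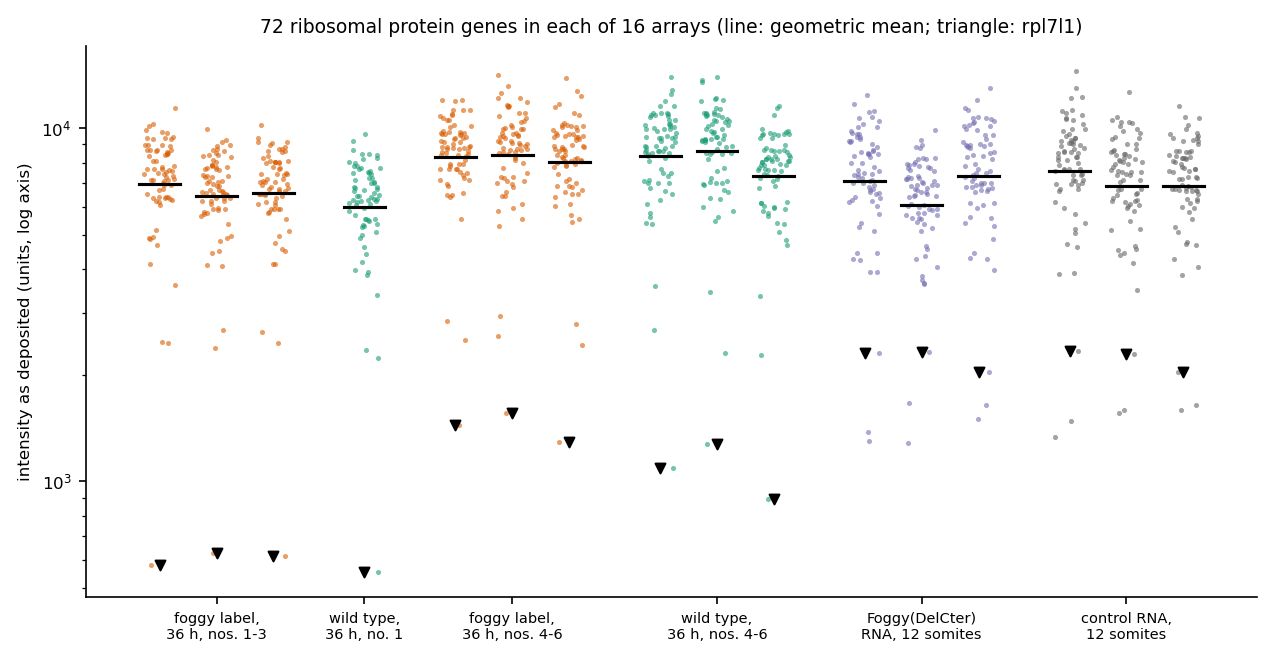
Deposited intensity (log axis) of the 72 ribosomal protein genes on each of the 16 arrays, in groups along the horizontal axis; points are genes, lines are geometric means and triangles are rpl7l1. The geometric means run from 5973 to 8607 units, and rpl7l1 lies lowest in numbers 1 to 3 and highest at 12 somites.

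The common level of the 72 genes overlapped between foggy and wild type of numbers 4 to 6. Their geometric mean was 8303, 8395 and 8037 units in the foggy arrays 4, 5 and 6, against 8368, 8607 and 7305 units in the wild-type arrays 4, 5 and 6. Wild-type array 6 held the lowest of its group's 3 values for 72 of 72 genes. In numbers 1 to 3 the geometric mean was 6949, 6414 and 6538 units in the arrays labelled foggy, against 5973 units in the wild-type array, which was the lowest of the 4. At 12 somites it was 7091, 6067 and 7326 units with Foggy(DelCter) RNA, against 7568, 6880 and 6885 units with control RNA, where Foggy(DelCter) array 2 held the lowest value of its group for 69 of 72 genes. Genes of 1 array thus moved up or down together, which limits what can be said of their common level. The deposited arrays share a trimmed mean that leaves out the brightest 2%, and with them nearly all members. Quantile normalization gives all arrays the same top values, so it cannot show a change that all members share to its full size. Each comparison was therefore read under values as deposited, quantile normalized and scaled to one median.

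In foggy against wild type of numbers 4 to 6, none of the 72 genes passed the test, whereas 19.3% of all probe sets did (limma, adjusted p under 0.05, 972 higher and 1127 lower of 10851 tested). The gene rps27l, left out by the rule, did pass and is described below. Among other probe sets in the signal range of the members, 138 of 448 passed, or 30.8%. That range runs from the dimmest to the brightest member, so these probe sets are not matched to the members in brightness. At an unadjusted p under 0.05, which some unchanged genes reach by chance, there were 5 of 72 genes. At least 19.3% of all tested probe sets reached that threshold, since an adjusted p is never below the unadjusted one. The median log2 difference of the 72 genes was -0.02, against 0.06 for all tested probe sets, and their interquartile range was 0.14, against 0.40. No member differed by over 1.5-fold, against 9.13% of all tested probe sets. Whether signal as bright as that of the members shows differences at their full size was not tested, here or in the other comparisons. The 95% interval lay within 1.5-fold for 71 of 72 genes; that of rpl7l1 reached a log2 difference of 0.68. No member was called with values as deposited, where the median was 0.02, against 19.5% of all tested probe sets, or scaled to one median, where the median was 0.10, that of all tested probe sets 0.09, and 21.7% of these were called. Values as deposited did not overlap between the groups for 9 genes, or 7 higher and 2 lower in foggy, while 39.6% of all tested probe sets did not overlap.

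Skeletal and heart muscle markers were lower in foggy in this comparison for 17 of 17 genes tested, neuronal markers for 13 of 16, blood markers for 10 of 13 and neural progenitor markers for 12 of 19 (limma, adjusted p under 0.05). Of 16 blood markers 3 to 7 were at or below the brightest unused tag control in these foggy arrays, and 0 in wild type. For 18 neuronal markers these counts were 2 to 5 and 1 or 2. Such genes can pass the filter on mean signal through the wild-type arrays alone, and could then be called only as lower. Trunk and tail Hox genes were higher for 13 of 27, epidermis markers were higher for 5 and lower for 2 of 15, and yolk layer and liver markers were higher for 1 of 17. Of all tested probe sets 8.96% were higher and 10.4% lower. Muscle markers summed to between 10621 and 14783 units in foggy, against 38323 to 59626 units in wild type. Their part in the values of the ribosomal protein genes was not tested. In such bulk samples fewer cells of a type and less RNA per cell cannot be told apart.

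**Figure D2:**
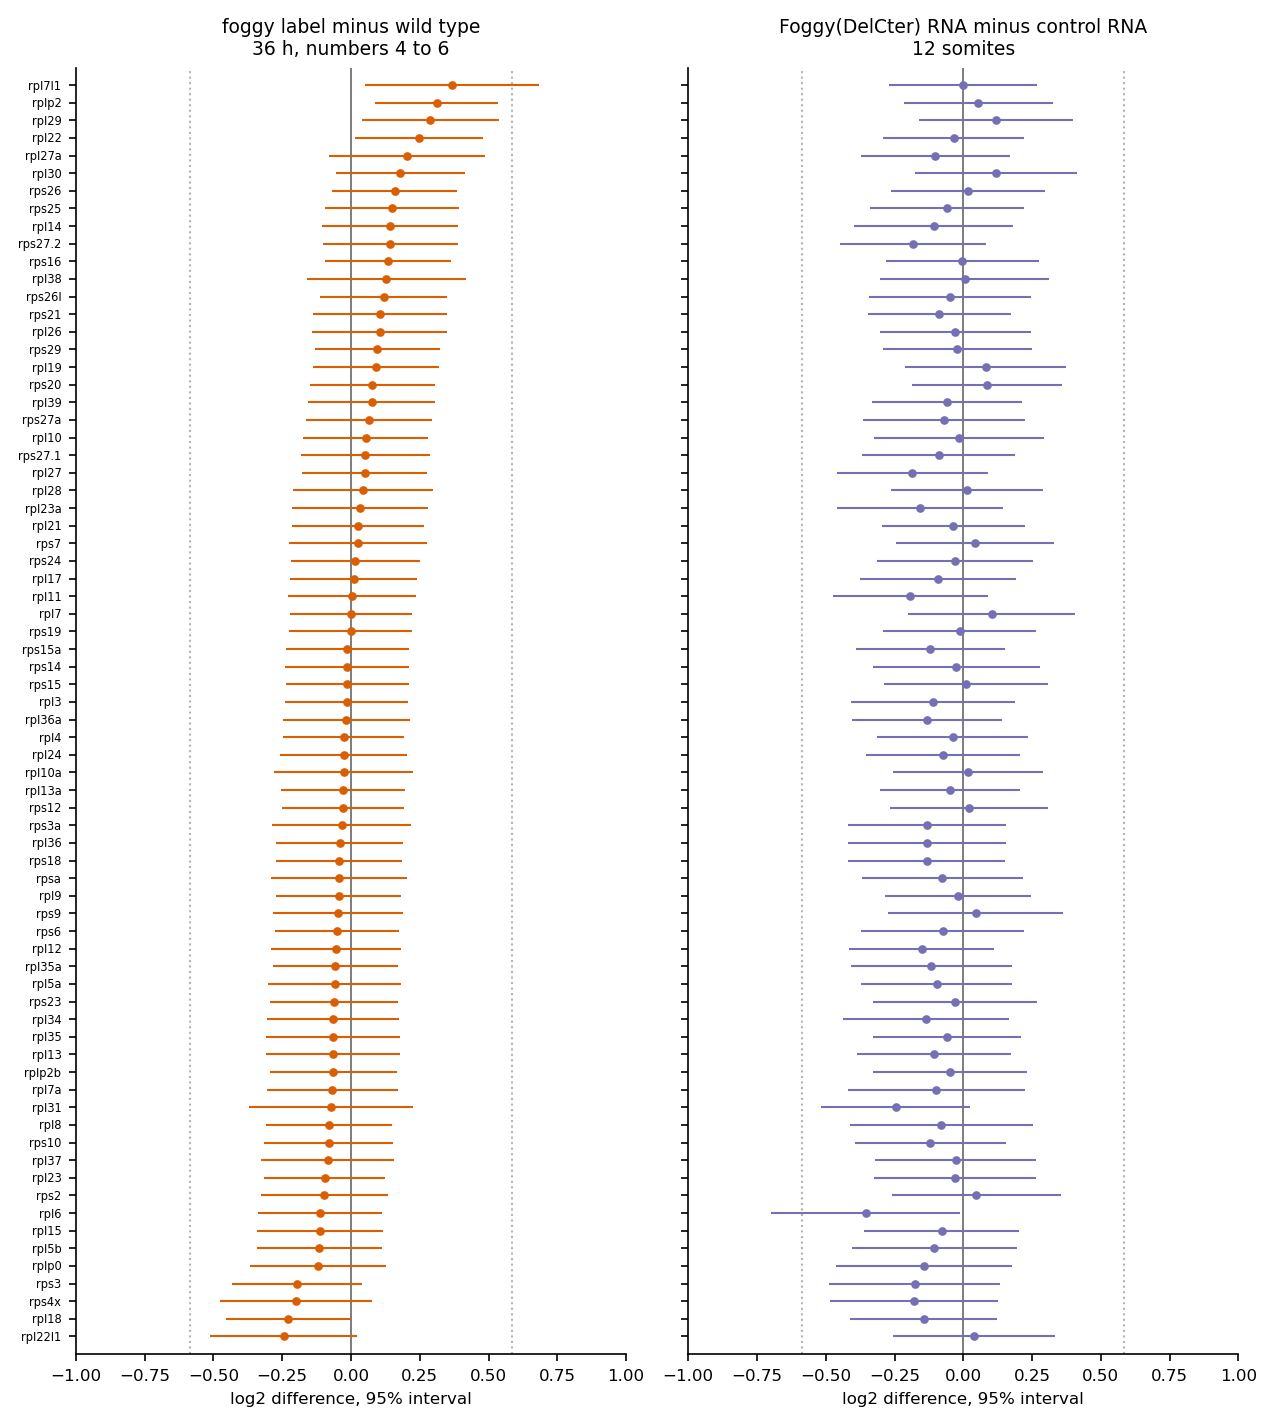
Log2 differences (horizontal axis, points) with 95% intervals (bars) of each of the 72 genes, for foggy minus wild type of numbers 4 to 6 (left) and Foggy(DelCter) RNA minus control RNA (right); dotted lines mark 1.5-fold. Genes are sorted by the left panel, where the differences run from -0.24 for rpl22l1 to 0.37 for rpl7l1.

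The stalk of the large subunit, which recruits the translation factors, held the gene nearest to the threshold. rplp2, an acidic stalk protein, had 6471.5, 6438 and 6388 units in the foggy arrays 4, 5 and 6, against 5407, 5621 and 5075 units in the wild-type arrays 4, 5 and 6. Every foggy array lay above every wild-type array. The log2 difference was 0.31 ± 0.10 (SE), with an adjusted p of 0.0549 by limma that ranged from 0.00511 to 0.148 over the other settings. Of its partners on the stalk, rplp0, which anchors the stalk, differed by -0.12, rpl12 at its base by -0.05 and the like-named acidic protein rplp2b by -0.06, each with a 95% interval that includes 0. The highest of these 3 intervals ended at 0.18.

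The proteins of the 5S particle, rpl5 and rpl11, are known in mammalian cells to bind Mdm2 when ribosome assembly fails. Their genes differed by 0.00 for rpl11, -0.06 for rpl5a and -0.12 for rpl5b. Their 3 intervals together spanned log2 differences from -0.34 to 0.24. The 8 genes for proteins around the exit tunnel of the nascent chain ranged from -0.07 to 0.10. In the small subunit, the 6 genes of the mRNA channel and decoding site ranged from -0.20 to -0.01, and rps3, at the mRNA entry, was the lowest. rps6, the substrate of the S6 kinases, differed by -0.05, and rps27a, made as a fusion with ubiquitin, by 0.06. By subunit, the median was -0.03 over 45 large and -0.01 over 27 small subunit genes.

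The other members with an unadjusted p under 0.05 were also of the large subunit, which holds 45 of the 72 genes. rpl29 differed by 0.29 ± 0.11, rpl22 by 0.25 ± 0.10 and rpl18 by -0.23 ± 0.10, with adjusted p of 0.0948, 0.125 and 0.142 (limma, SE). rpl7l1, a relative of rpl7, differed by 0.37 ± 0.14 with an adjusted p of 0.0958 (limma). It had 1444, 1558 and 1297 units in the foggy arrays 4, 5 and 6, against 1093, 1279 and 889 units in the wild-type arrays 4, 5 and 6, so the groups were separate by a narrow margin. None of these genes passed the test. By level in wild type of numbers 4 to 6, rpl22, rplp2, rpl29 and rpl7l1 ranked 64, 68, 69 and 72 of the 72 genes, and rpl18 ranked 49. Over the other settings the adjusted p of rpl7l1 ranged from 0.0365 to 0.238 (limma), and up to 3 of rpl29, rpl22 and rpl7l1 passed as higher and rpl18 as lower.

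Over all 10 arrays at 36 h, none of the 72 genes was called, and 0.221% of all tested probe sets were (limma). At an unadjusted p under 0.05 there was 1 gene, rplp2, with a log2 difference of 0.30 ± 0.10 and an adjusted p of 0.365 that ranged from 0.0496 to 0.951 over the other settings (limma, SE). The share of all tested probe sets under that unadjusted threshold was not counted. Next by p were rpl27a among positive differences, at 0.19, and rps4x and rps3 among negative ones, at -0.21 and -0.13, with adjusted p of 0.668, 0.706 and 0.768 (limma). As deposited, rplp2 had 6325, 5722 and 5763 units in the foggy arrays 1, 2 and 3, against 5098 units in wild-type array 1. All 6 arrays labelled foggy lay above all 4 wild-type arrays, and rplp2 was the only member with such a separation, which 3.23% of all tested probe sets had. With the set of arrays as a block, rplp2 was called higher with a log2 difference of 0.25 ± 0.08 and an adjusted p of 0.0496 (limma), in a fit that called 13.2% of all tested probe sets. With the title number as a replicate block its adjusted p was 0.113, in a fit that called no member and 9.33% of all tested probe sets (limma). Within numbers 1 to 3, with 1 wild-type array and a spread pooled over the sets, its log2 difference was 0.13 with a 95% interval from -0.13 to 0.39, and no member was called against 0.728% of all tested probe sets.

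Injection of Foggy(DelCter) RNA moved no ribosomal protein gene past the threshold, while 11.3% of all tested probe sets passed it (limma, 404 higher and 819 lower). Among other probe sets in the signal range of the members, 26 of 353 passed, or 7.37%. At an unadjusted p under 0.05 there was 1 gene of the 72, and at least 11.3% of all tested probe sets. The median log2 difference was -0.06, against -0.02 for all tested probe sets. It was 0.00 after quantile normalization and 0.05 after scaling to one median, and as deposited it was 0.02 without Foggy(DelCter) array 2 and -0.12 without Foggy(DelCter) array 3, so the sign of the common difference is not settled. No member was called under these settings, against 9.93% of all tested probe sets after quantile normalization and 11.9% after scaling to one median. The 95% interval lay within 1.5-fold for 71 of 72 genes, the exception being rpl6. Values as deposited did not overlap for 2 genes, rpl31 and rpl11, both lower with Foggy(DelCter) RNA, while 30.9% of all tested probe sets did not overlap. In the same comparison 8 of 16 yolk layer and liver markers, 5 of 10 blood markers and 3 of 6 muscle markers were lower, and 1 yolk layer and liver marker was higher. Of 17 muscle markers 7 to 13 were at or below the brightest unused tag control with Foggy(DelCter) RNA, and 4 to 9 with control RNA. For 16 blood markers these counts were 5 to 7 and 3 to 6. Such genes can pass the filter on mean signal through the control arrays alone, and could then be called only as lower. Neuronal markers were lower for 3 of 5, epidermis markers for 3 of 15, neural progenitor markers for 2 of 18, with 1 higher, and trunk and tail Hox genes were higher for 4 and lower for 2 of 25. Their part in the values of the ribosomal protein genes was not tested.

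rpl6 had the lowest difference after injection. It had 5131, 4359.5 and 5302 units with Foggy(DelCter) RNA, against 7667, 5157 and 6294 units with control RNA. The groups overlapped, while in each of the 3 pairs of the same number the Foggy(DelCter) array was the lower one. The log2 difference was -0.36 ± 0.16 (SE) with an adjusted p of 0.178, and of 0.0803 with the number as a replicate block, over a range from 0.0725 to 0.451 in the other settings (limma). rpl31, at the exit of the tunnel, had 4235, 4055 and 4447 units with Foggy(DelCter) RNA, against 5378.5, 4516.5 and 5253 units with control RNA, and a log2 difference of -0.25 ± 0.12 with an adjusted p of 0.235 (limma, SE). The gene with the highest difference was rpl30 at 0.12, with an adjusted p of 0.619 (limma). rplp2 differed by 0.06, rpl22l1 by 0.04 and rpl7l1 by 0.00, with intervals that include 0.

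The difference between the foggy effect of numbers 4 to 6 and the Foggy(DelCter) effect was tested as a contrast in 1 fit. That fit used values as deposited, whereas the foggy differences above were quantile normalized, so its values cannot be had from those. No member was called, whereas 10.6% of all tested probe sets were (limma). After quantile normalization and scaled to one median no member was called either, against 10.3% and 10.1% of all tested probe sets. At an unadjusted p under 0.05 there was 1 member, rpl22l1, and at least 10.6% of all tested probe sets. The value of rpl22l1 was -0.38, with a 95% interval from -0.76 to -0.0020 and an adjusted p of 0.194 (limma). At the other end, rpl7l1 had 0.41, with an interval from -0.0065 to 0.82. The interval lay within 1.5-fold for 61 of the 72 genes.

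Wild type at 36 h of numbers 4 to 6 was set against embryos with control RNA at 12 somites, a comparison in which stage, labelled tissue and injection cannot be told apart. It shares its wild-type arrays with the foggy comparison and its control arrays with the injection comparison. Here 14 ribosomal protein genes were higher and 1 was lower, or 15 of 72, against 57.1% of all tested probe sets (limma, 24.7% higher and 32.5% lower). Beyond 1.5-fold there were 4 members, against 37.0% of all tested probe sets. The median log2 difference was 0.17, against -0.10 for all tested probe sets. Muscle markers were higher at 36 h for 17 of 17 genes and neuronal markers for 13 of 14. In the 12-somite control arrays 8 to 12 of 18 neuronal and 4 to 9 of 17 muscle markers were at or below the brightest unused tag control. In wild-type arrays 4 to 6 there were 1 or 2 such neuronal and 0 such muscle markers. Of 16 blood markers 3 to 6 were that dim at 12 somites, and 0 at 36 h. Such genes can pass the filter on mean signal through the 36 h arrays alone, and could then be called only as higher. Yolk layer and liver markers were higher for 16 and lower for 1 of 18, neural progenitor markers for 10 and 2 of 19, blood markers for 8 and 2 of 14, epidermis markers for 7 and 5 of 15, and trunk and tail Hox genes for 5 and 12 of 27. The part of these markers in the values of the members was not tested. Calls depended on the scaling and on single arrays: 7 were higher after quantile normalization, with a median of 0.05, against 25.0% of all tested probe sets, and 11 after scaling to one median, against 24.4%. Leaving out wild-type array 6 gave 26 higher, wild-type array 4 gave 9, wild-type array 5 gave 7 and control array 2 gave 7, with rpl7l1 the only gene lower in each. Of all tested probe sets 22.7%, 21.8%, 22.1% and 23.1% were higher in those same 4 fits. Values as deposited did not overlap for 26 genes, or 25 higher and 1 lower at 36 h, while 64.2% of all tested probe sets did not overlap.

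Both extremes of the stage comparison were genes named after another member. rpl22l1, a relative of rpl22, had 3582, 3435.5 and 3353 units in wild type at 36 h, against 1334, 1595 and 1642.5 units with control RNA at 12 somites. Every 36 h array was above every 12-somite array, and the log2 difference was 1.18 ± 0.12 with an adjusted p of 2.03e-05 (limma, SE). rpl7l1 ran the other way, with 1093, 1279 and 889 units at 36 h, against 2343, 2302 and 2040 units at 12 somites, and a log2 difference of -1.04 ± 0.15 with an adjusted p of 0.000167 (limma). Their namesakes were not called: rpl22 differed by 0.11 and rpl7 by 0.08.

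Further genes higher at 36 h were rpl31, with a log2 difference of 0.92 ± 0.15 and an adjusted p of 0.000529, and rps27.2, with 0.64 ± 0.12 and an adjusted p of 0.001 (limma, SE). For rpl31 the deposited values were 10741, 10546 and 7611 units in wild type at 36 h, against 5378.5, 4516.5 and 5253 units at 12 somites. For rps27.2 they were 2683, 2311 and 2285 units, against 1483, 1559 and 1597 units. Of the 5S particle, rpl5a was higher by 0.52 and rpl5b by 0.36, while rpl11 differed by 0.07 and was not called. Of the stalk, rplp2 was higher by 0.50 and rplp0, rplp2b and rpl12 were not called. The calls of rpl5a, rpl5b and rplp2 were lost after quantile normalization, with adjusted p of 0.0668, 0.107 and 0.0813 (limma), while rpl22l1, rpl31, rps27.2 and rpsa were among the 7 that still passed. None of the 6 genes of the mRNA channel and decoding site was called.

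**Figure D3:**
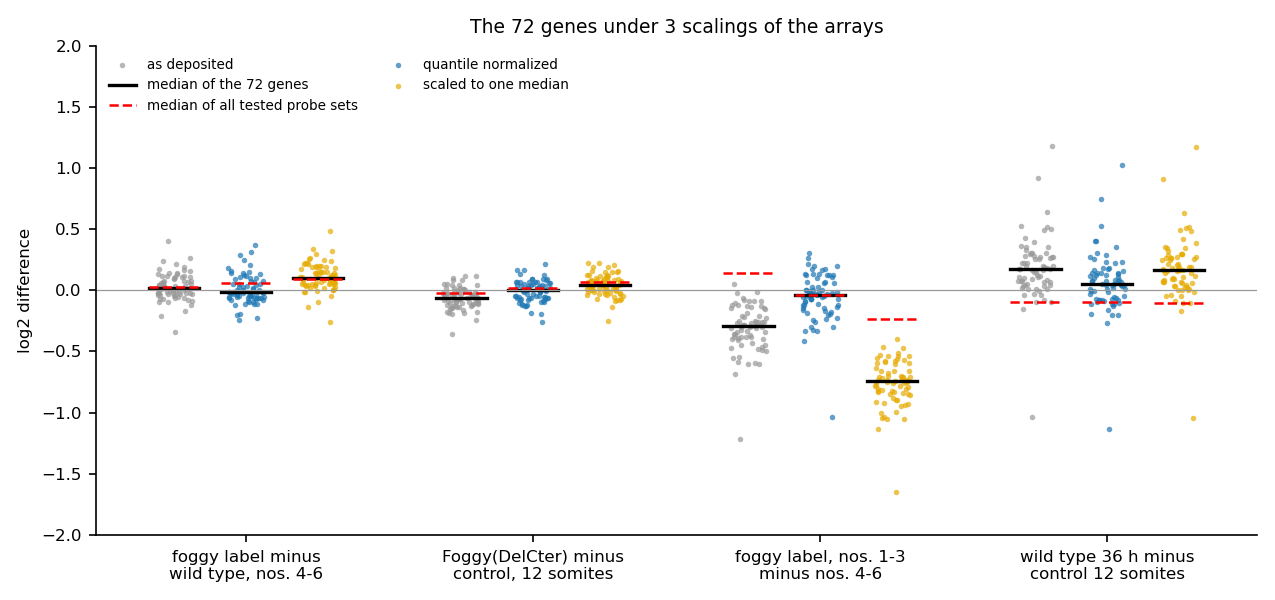
Log2 differences (vertical axis) of the 72 genes in 4 comparisons, each under 3 scalings of the arrays shown by colour; black lines are medians of the 72 genes and red dashed lines medians of all tested probe sets. Within foggy against wild type and Foggy(DelCter) against control the medians stay between -0.06 and 0.10, whereas between the sets of numbers they run from -0.74 to -0.03.

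Between the sets of arrays labelled foggy, the direction of the ribosomal protein genes depended on the scaling. The arrays of numbers 4 to 6 are the same as in the foggy comparison above. After quantile normalization 3 genes were higher and 11 lower in numbers 1 to 3, or 14 of 72, against 71.4% of all tested probe sets (limma, 34.3% higher and 37.1% lower). As deposited 0 were higher and 50 lower, while 42.9% of all tested probe sets were higher and 29.3% lower, and the median was -0.29 against 0.14 for all. Scaled to one median, 0 were higher and 72 lower, while 26.8% of all were higher and 47.2% lower, and the median was -0.74 against -0.24 for all. The 3 rises, rplp2b at 0.31, rpl24 at 0.26 and rpl37 at 0.22, were not called as deposited and became falls when scaled to one median. After quantile normalization only rpl7l1 exceeded 1.5-fold, against 45.9% of all tested probe sets. Leaving out foggy array 1 left 1 higher and 7 lower, and leaving out foggy array 2 or foggy array 3 left 0 higher and 6 lower, in fits that called 67.3%, 65.2% and 65.3% of all tested probe sets. Values as deposited did not overlap for 61 genes, each lower in numbers 1 to 3, while 75.2% of all tested probe sets did not overlap.

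The fall of rpl7l1 held under each scaling. It had 579, 629 and 617 units in the foggy arrays 1, 2 and 3, against 1444, 1558 and 1297 units in the foggy arrays 4, 5 and 6. The log2 difference was -1.04 ± 0.10 with an adjusted p of 1.34e-05 (limma, SE, quantile normalized), -1.21 as deposited and -1.65 scaled to one median. rps26l, a gene named after rps26, was next at -0.41 ± 0.09 with an adjusted p of 0.0024, followed by rpl29 and rpl35 at -0.33 each, with adjusted p of 0.0151 and 0.00727 (limma). The 3 probe sets of rps27.1 did not move together: the brightest differed by -0.20 and was not called, while the other two were higher in numbers 1 to 3 by 0.89 and 0.80, with adjusted p of 1.15e-05 and 7.78e-05 (limma). In foggy against wild type of numbers 4 to 6 those 3 probe sets differed by between 0.05 and 0.08.

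Log2 ratios within an array do not change when the array is multiplied by 1 factor, although quantile normalization does change them, and 6 pairs of like-named genes were read this way, from values as deposited, in 5 comparisons. Whether the probes of one gene of a pair also bind the transcript of the other was not tested. The log2 ratio of rpl22l1 to rpl22 was -1.43, -1.27 and -1.48 in the foggy arrays 4, 5 and 6, against -0.81, -0.89 and -0.75 in the wild-type arrays 4, 5 and 6. The groups were separate, with a difference of -0.58, an exact permutation p of 0.1, the smallest that 3 against 3 allows, and an adjusted p of 0.2 over the 30 tests. In numbers 1 to 3 the ratio was -0.91, -0.88 and -0.95 in the arrays labelled foggy, against -0.82 in the wild-type array. With Foggy(DelCter) RNA it was -1.82 ± 0.21, against -1.90 ± 0.23 with control RNA (SD, n = 3 each), and these groups overlapped.

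The ratio of rplp2b to rplp2 was 0.36 ± 0.06 in the foggy arrays 4 to 6, against 0.68 ± 0.03 in the wild-type arrays 4 to 6 (SD, n = 3 each), also without overlap. Over all 10 arrays the ratio was lower in each of the 6 arrays labelled foggy than in each of the 4 wild-type arrays, with a difference of -0.22, an exact permutation p of 0.00952 and an adjusted p of 0.2. The permutation took no account of the sets of arrays. In numbers 1 to 3 the ratio was 0.45, 0.55 and 0.57 in the arrays labelled foggy, against 0.60 in the wild-type array. The ratio of rpl7l1 to rpl7 was -2.72 ± 0.12 in the foggy arrays 4 to 6, against -3.10 ± 0.14 in wild type, without overlap. The ratios of rpl5a to rpl5b, rps26l to rps26 and rps27.2 to rps27.1 overlapped between foggy and wild type. None of the 6 ratios separated Foggy(DelCter) RNA from control RNA, and no test passed after adjustment over the 30. Tests of 3 against 3, which are most of the 30, could not pass, since their smallest exact permutation p is 0.1. Their number also raises the adjusted p of the tests over all 10 arrays.

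**Figure D4:**
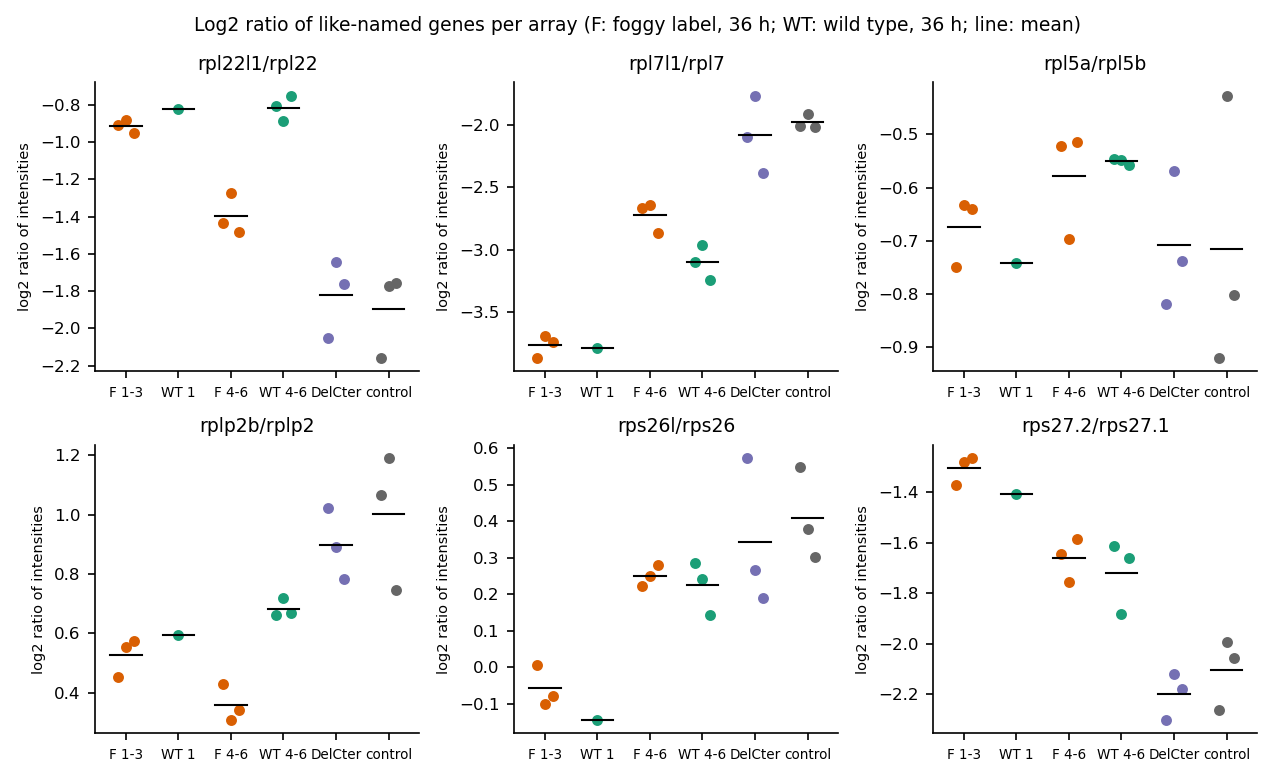
Log2 ratio of intensities (vertical axis) of 6 pairs of like-named genes on each array (points), by group along the horizontal axis, with group means as lines. The ratio of rpl22l1 to rpl22 lies between -1.48 and -1.27 in foggy arrays 4 to 6, against -0.89 to -0.75 in wild-type arrays 4 to 6.

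Ribosome biogenesis factors, which build the subunits and leave them before translation, were read beside the proteins they assemble. In foggy against wild type of numbers 4 to 6, 9 of 81 were higher and 4 lower, with a median log2 difference of 0.16, while 19.3% of all tested probe sets were called. Scaled to one median, 19 were higher and 3 lower, against 12.3% higher and 9.39% lower of all tested probe sets. utp6, of the small subunit processome, was higher by 0.60, and pwp2h, of the same complex, was lower by 0.94 on the log2 scale. dkc1, of the small nucleolar particles that modify ribosomal RNA, fell by 0.56 on the log2 scale, with an adjusted p of 0.00786 (limma). With Foggy(DelCter) RNA 0 of 81 were higher and 2, pwp2h and bop1, lower, while 11.3% of all tested probe sets were called. After quantile normalization 0 were higher and 1 lower, and scaled to one median 2 were higher and 0 lower. In those fits 9.93% and 11.9% of all were called. In the stage comparison 2 of 81 were higher and 74 lower, with a median of -1.01, against 24.7% higher and 32.5% lower of all tested probe sets. Between the sets of numbers 5 were higher and 66 lower, with a median of -0.88, against 34.3% higher and 37.1% lower of all. Under the other scalings 73 or 74 were lower in the stage comparison, against 32.3% or 32.6% of all. Between the sets 64 or 71 were lower under them, against 29.3% or 47.2% of all. In the main fits rpl7l1, the lowest member in both comparisons at -1.04, lay close to the medians of -1.01 and -0.88. The median ribosomal protein gene was at 0.17 and -0.03. Between the sets that gene median was -0.29 as deposited and -0.74 scaled to one median. The biogenesis factors had medians of -0.79 and -1.20 under those scalings. There rpl7l1, at the values given above, lay further below the medians of the factors than after quantile normalization.

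Mitochondrial ribosomal proteins, which form the separate ribosome of that organelle, had 6 of 59 higher and 1 lower in foggy of numbers 4 to 6, with mrpl36 the first by p at a log2 difference of 0.68, while 19.3% of all tested probe sets were called. Scaled to one median, 11 were higher and 1 lower, against 12.3% higher and 9.39% lower of all. With Foggy(DelCter) RNA 3 of 59 were higher and 1 lower, while 11.3% of all were called. In the stage comparison 17 of 59 were higher and 6 lower, against 24.7% higher and 32.5% lower of all. Between the sets 1 of 59 was higher and 48 lower, against 34.3% higher and 37.1% lower of all. Other mRNAs are known in mammals to carry the pyrimidine start, such as those of elongation factors. Of these, 4 of 29 were higher and 8 lower in foggy of numbers 4 to 6, against 8.96% higher and 10.4% lower of all. As deposited 1 was higher and 8 lower, and scaled to one median 2 were higher and 6 lower. In those fits 19.5% and 21.7% of all were called. With Foggy(DelCter) RNA 0 of 29 were higher and 5 lower, or 2 lower when scaled to one median. Of all tested probe sets 7.55% and 5.16% were lower in those fits. Genes of mTOR control had 2 of 22 higher and 2 lower in foggy, a share near that of all tested probe sets. Scaled to one median, 6 were higher and 3 lower, while 21.7% of all were called. Genes of the p53 response, of which 13 of 18 on the array passed the filter, had 8 higher and 2 lower in foggy. One of the 2 lower, tp63 with a log2 difference of -0.81, is also in the list of epidermis markers and was counted as lower there too. Of all tested probe sets 8.96% were higher and 10.4% lower. Some of the list lay near the floor: gadd45aa had 13.3, 9.5 and 16.2 units and bbc3 11.1, 15.4 and 18.4 units in wild-type arrays 4, 5 and 6. Unused tag controls reached 14.7, 11.4 and 15.4 units there. Such genes can pass the filter through the foggy arrays alone, and could then be called only as higher. The higher count was 7 as deposited and 11 scaled to one median, while 8.13% and 12.3% of all were higher. With Foggy(DelCter) RNA 0 of 16 were called under each of the 3 scalings, while 9.93 to 11.9% of all were called (limma). One of the 8 was rps27l, a p53 target in mammals left out of the members, with 664, 671 and 1128 units in foggy arrays 4, 5 and 6, against 348, 358 and 395 units in wild type, and a log2 difference of 1.02 ± 0.18 with an adjusted p of 0.00627 (limma, SE). rack1, a small subunit protein outside the naming rule, differed by 0.00 in foggy and by -0.04 with Foggy(DelCter) RNA and was called in neither.

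**Figure D5:**
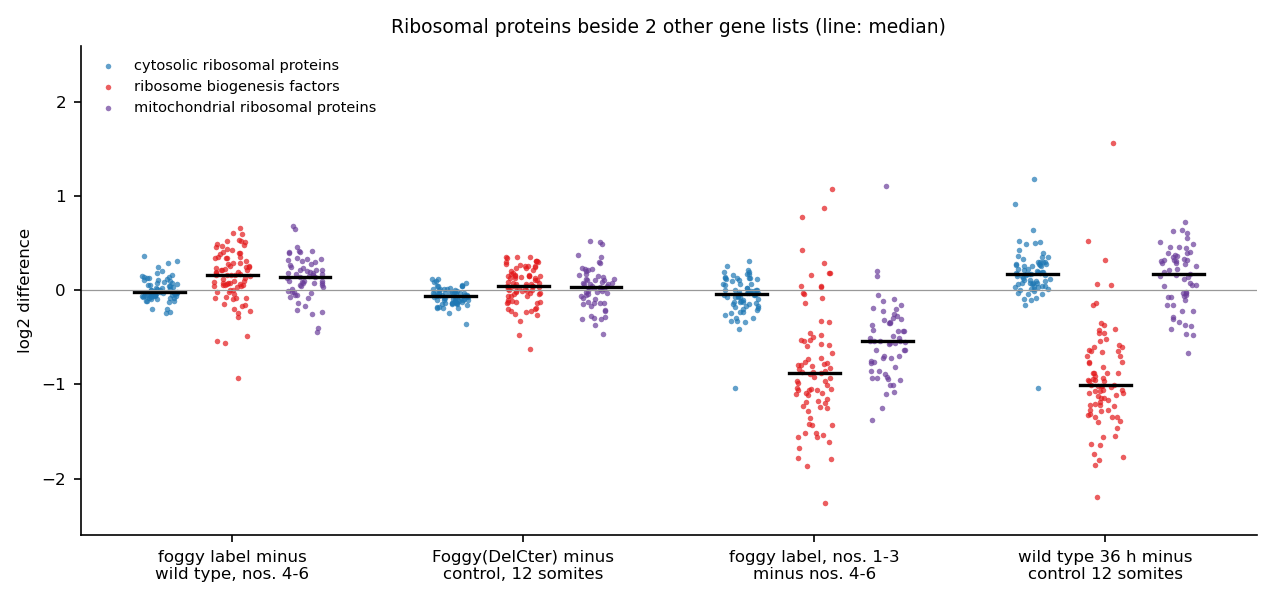
Log2 differences (vertical axis) of the ribosomal proteins, the ribosome biogenesis factors and the mitochondrial ribosomal proteins, by colour, in 4 comparisons; points are genes and lines are medians. The medians of the biogenesis factors are 0.16, 0.05, -0.88 and -1.01 from left to right, against -0.02, -0.06, -0.03 and 0.17 for the ribosomal proteins.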

How the data were processed

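The values are intensity per probe set on a linear scale, deposited by the authors as 1 table of 16 arrays. The values themselves show that the authors scaled each array to a 2% trimmed mean of 150.0 units; the method of summarising probes is not given in the labels or headers. Arrays have no sequencing depth, so their number limits the precision, and unused tag controls reached up to 34.4 units. Control probe sets (115) were left out.

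The members and gene lists were chosen with earlier results of these data known. Groups came from the labels. Tests used log2(value + 16), on which scale differences are understated for dim genes, a filter at the 30th percentile that 10851 probe sets passed, and limma 3.58.1 (lmFit, eBayes; R 4.3.3). Tests were 2-sided, with Benjamini-Hochberg adjustment over all tested probe sets and calls at an adjusted p under 0.05. All 72 genes passed the filter in every comparison. The 36 h arrays, whose log2 medians differed by 0.373, were quantile normalized, and other comparisons used values as deposited. Reading all comparisons under 3 scalings and taking probe sets in the signal range of the members as a background were added after the data were seen. The tests were checked on simulated data in which the noise of each probe set was independent. That check does not bear on shifts that the genes of an array share. Genes were named by a rule on level, p value and called change, with the stalk proteins rplp0 and rplp2, rpsa and like-named genes in any case. Other genes described by role (rpl11, rpl12, rps6, rps27a, rps3 and rack1) and rps27l were chosen after their values were seen.

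Deviations of same-numbered arrays of the injected embryos had r of 0.237, 0.23 and 0.181, and whether these arrays were paired is not known. The main fits used no pairing, and the number as a replicate block was read as another setting. For Foggy(DelCter) RNA against control RNA that block called no member and 14.8% of all tested probe sets (limma). Over all 10 arrays at 36 h the r were 0.903, 0.838, 0.848 and 0.691 for numbers 1, 4, 5 and 6. Same-numbered arrays also share a set there, so these r do not show pairing. Within numbers 4 to 6 they were 0.0612, 0.278 and 0.355.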

Additional observations from a re-analysis of the deposited data

Results flagged for a closer look

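Among 38 groups of 4 or 6 arrays looked at, 1 held an array far from the others. rps27.2 had 2683 units in wild-type array 4 at 36 h, while the other 3 wild-type arrays lay between 2238 and 2311 units. Chance sets apart about 1 in 20 groups of like arrays. These groups joined numbers 1 to 3 with numbers 4 to 6, so that rate does not hold for them. A difference between the sets can hide or mimic an array far from the others. The 6 arrays labelled foggy ranged from 2390 to 2797 units for this gene.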

How the results depend on the processing

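In foggy against wild type of numbers 4 to 6, the count of genes called higher was 1 with a filter at the 60th percentile (28% of all probe sets were called), 1 with the mean of all probe sets of a symbol (20.6%), 3 with a pseudocount of 64 (22%), and 4, with 1 lower, with an intensity trend and robust prior (21.8%). It was 4 in 1 fit over all 16 arrays (25.7%). Scaled to one median the median was 0.10, and -0.063 over all 10 arrays. Same-numbered arrays of numbers 4 to 6 had r of 0.0612, 0.278 and 0.355, and whether they were paired is not known. The number as a replicate block gave 1 gene higher (25.1% of all), rpl7l1, with an adjusted p of 0.0365 (limma). Over the settings without that block, the adjusted p of rpl7l1 was 0.04 to 0.238 (limma). The array set as a block over all 10 arrays gave 1 higher, and the replicate block changed no other call.

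Between the sets, values as deposited gave 0 higher, 50 lower and a median of -0.29, with rpl24 at -0.016 and rpl37 at -0.023. Scaling to one median gave 0 higher, 72 lower and a median of -0.74, with rplp2b at -0.40, rpl24 at -0.46 and rpl37 at -0.47. No filter gave 7 lower (29.5% of all), a pseudocount of 64 gave 7 higher (34.7%), and the intensity trend 11 higher (34.5%) and 23 lower (37.3%). In the stage comparison, quantile normalization gave 7 higher and a median of 0.050, a pseudocount of 64 gave 24 higher (25.0% of all) and the trend 26 (25.2%). The cause was not tested.

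Leaving out each array in turn gave 0 higher and 0 lower for foggy against wild type in both fits, for Foggy(DelCter) and for the difference of effects. Leaving out arrays gave 0 to 3 higher and 6 to 11 lower between the sets, and 7 to 26 higher and 1 lower in the stage comparison. Those fits called 65.2 to 70.6% and 50.4 to 54.3% of all tested probe sets. Medians ranged from -0.03 to 0.00 (numbers 4 to 6), -0.01 to 0.01 (all 10 arrays), -0.12 to 0.02 (Foggy(DelCter)), 0.01 to 0.16 (difference of effects), -0.04 to -0.02 (between sets) and 0.13 to 0.23 (stage).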
